A study of Mus musculus with 36 samples.

Results

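RNA was compared between 5 dysmorphic fetal mouse kidneys and 3 normal fetal kidneys, chosen by the sample labels and by their place in the count table of the Pax8-Cre model, which holds 8 of the 36 samples of the series. The dysmorphic kidneys came from fetuses of genotype Pax8-Cre; ASPSCR1-TFE3 LSL/+, in which Cre recombinase made from the Pax8 promoter removes a stop cassette (lox-stop-lox, LSL) and switches on the ASPSCR1-TFE3 fusion. The labels of the 3 control samples give the genotype as Pax8-Cre, whereas the design text of the series allows either Pax8-Cre or ASPSCR1-TFE3 LSL/+ without the other allele for these age-matched controls. All 8 tissues were fixed in formalin and embedded in paraffin, and the stranded total RNA libraries kept ribosomal RNA. The age of the fetuses was not given in the sources used here. Samples are numbered in the order of their labels, dysmorphic 1 to 3 and controls 1 and 2 sharing the title prefix H0248 and dysmorphic 4 and 5 and control 3 sharing M1833.

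TFE3 belongs to the MiT/TFE family of transcription factors, with MITF, TFEB and TFEC, which bind E-box sequences in front of lysosomal, autophagy and pigment cell genes. Fusions that join the start of ASPSCR1 to the DNA-binding end of TFE3 drive alveolar soft part sarcoma and a share of translocation renal cell carcinomas, tumors that often contain melanocytic proteins and cathepsin K. Pax8 is a transcription factor of the nephric lineage, so Pax8-Cre acts in the epithelium that forms nephrons and collecting ducts, while stroma, vessels and blood cells of the kidney derive from other lineages.

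The samples held between 97459155 and 118318077 counts each. By Y-linked transcripts, 3 of the 5 dysmorphic and 1 of the 3 control fetuses were male. The tissue itself was checked with marker lists, because each sample could hold tissue beside the kidney. Genes of skeletal muscle took 5.77% to 12.6% of all counts in the dysmorphic samples and 2.28% to 2.64% in the controls. Transcripts of gut epithelium were high in dysmorphic 5, control 2 and control 3, where Fabp2, an intestinal fatty acid binding protein, reached 541, 744 and 757 CPM (the count scaled to the library size with TMM factors), against at most 6.17 CPM in the other 5 samples. The pancreatic enzyme gene Cpa1 was at 149 and 194 CPM in controls 1 and 2 and at 103 CPM in dysmorphic 2, against at most 30.0 CPM elsewhere. The first principal component of the 8 samples took 52.3% of the variance and placed controls 3 and 2 and dysmorphic 5 at one end, the same 3 samples that carried gut transcripts.

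Kidney transcripts set control 3 apart from its label. Pax2, a transcription factor of the nephric lineage, was at 77.0 CPM in control 1, 34.4 in control 2 and 1.87 in control 3. Slc12a1, the sodium-potassium-chloride transporter of the thick ascending limb, was at 608, 186 and 0.729 CPM in the same order. Control 3 was therefore low for both of these markers while labelled as normal fetal kidney. It was below both other controls for 14 of 16 renal lineage factors, 14 of 20 podocyte genes and 19 of 20 genes of the loop of Henle and distal tubule, and it was inside the range of the dysmorphic samples for 8, 9 and 12 of these. Proximal tubule genes did not follow this order. They took 0.305%, 0.381% and 0.391% of the counts in controls 1 to 3 and at most 0.251% in the dysmorphic samples, and control 3 was the highest of all samples for 11 of the 30 genes. The ureteric bud and collecting duct share of control 3, 0.0803%, lay between those of controls 2 and 1. Among the dysmorphic samples, dysmorphic 2 held the most Pax2, with 17.9 CPM, against 4.74 CPM in dysmorphic 1, 0.962 in dysmorphic 3, 0.131 in dysmorphic 4 and 6.89 in dysmorphic 5. List medians with and without control 3 are plotted for every list. In bulk tissue fewer kidney cells and less RNA per kidney cell cannot be told apart.

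**Figure D1:**
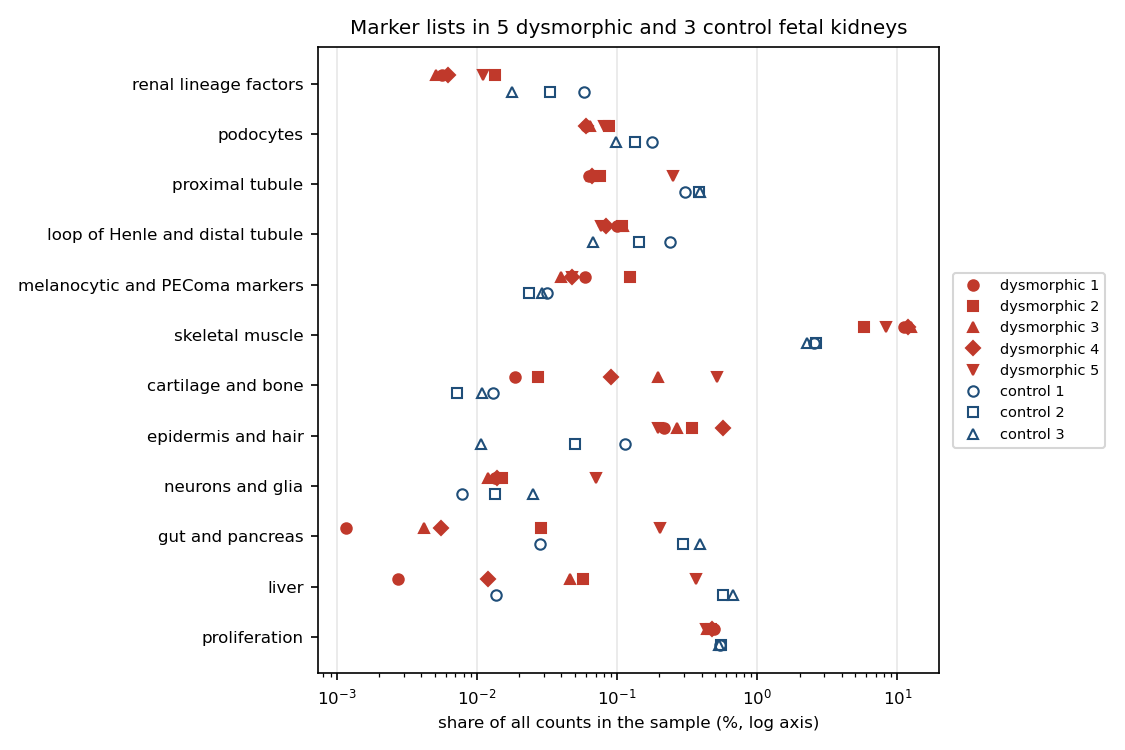
Share of all counts, in percent on a log axis, taken by the genes of 12 marker lists in each of the 5 dysmorphic (filled, red) and 3 control (open, blue) fetal kidneys. Skeletal muscle genes lay between 5.77% and 12.6% in the dysmorphic samples and between 2.28% and 2.64% in the controls, while the shares of gut and pancreas genes overlapped widely.

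Across the transcriptome, 605 of 22690 genes tested differed between the groups (2.67%) at an adjusted p below 0.05 in edgeR's quasi-likelihood test. Of these, 544 were higher in the dysmorphic kidneys (2.4%) and 61 were lower (0.269%). Every dysmorphic sample lay above every control for 2187 genes (9.64%) and below every control for 1154 genes (5.09%). At an unadjusted p below 0.05 there were 4609 genes (20.3%). DESeq2 called 10.8% of the genes it tested (8.19% higher, 2.58% lower), and limma voom with sample weights called 17.3% (9.95% higher, 7.31% lower). The median log2 fold change over all genes tested was -0.04, and 46.4% of genes had a positive value. The adjusted p-values of the called genes all lay between 0.035 and 0.05, so the calls sit close to the threshold. No gene was called when dysmorphic 1, 3 or 4 or any of the 3 controls was left out, although between 3209 and 4615 genes had an unadjusted p below 0.05 in those fits. With sex as a covariate 5 genes were called, none of them on any list, so each call on a list gene is lost in that fit too. Leaving out dysmorphic 2 gave 1247 calls and leaving out dysmorphic 5 gave 1141. Every call on a single gene described here is therefore lost in at least 6 of the 8 fits that leave out 1 sample. Among them, Gca was called in only 1 of these fits and Slc16a12 in 0. The direction of each called gene that was checked was the same in all 8 fits.

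Melanocytic and pigment cell genes were higher in the dysmorphic kidneys as a group. Of 16 genes on the list of melanocytic and perivascular epithelioid cell tumor (PEComa) markers, 14 had every dysmorphic sample above every control, against 9.64% of all genes. In edgeR 4 were called higher, against 2.4% of all genes, and 0 were called lower. DESeq2 and voom each called 13 of them higher and 0 lower, against 8.19% and 9.95% of all genes called higher. The median log2 fold change of the list was 3.15, or 2.65 without control 3, against -0.04 over all genes. Pmel, which encodes the fibrillar protein of melanosomes, rose by 4.98 ± 0.95 (log2, SE) with an adjusted p of 0.0402. Its levels were 34.8, 111, 11.0, 18.2 and 21.0 CPM in dysmorphic 1 to 5 and 1.81, 1.22 and 0.684 CPM in controls 1 to 3. The lowest dysmorphic sample was thus well above the highest control, and dysmorphic 2 was the highest of all. Dct, a melanin synthesis enzyme, rose by 3.61 ± 0.48 (adjusted p = 0.035), from 1.78 ± 0.731 CPM (SD, n = 3) to 21.7 ± 7.98 CPM (SD, n = 5). Ctsk, the collagen-degrading lysosomal protease cathepsin K, rose by 2.29 ± 0.38 (adjusted p = 0.035), with 24.4, 10.2, 26.9, 32.7 and 30.3 CPM in the dysmorphic samples and 5.51, 4.17 and 5.62 CPM in the controls. Here dysmorphic 2 was the lowest of its group, the reverse of its place for Pmel. Rab38, a small GTPase of melanosome transport, rose by 1.59 ± 0.33 (adjusted p = 0.0462).

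Gpnmb, a lysosomal and melanosomal glycoprotein, had the largest fold change of the list and did not pass the test. Its levels were 177, 595, 41.2, 16.0 and 70.8 CPM in dysmorphic 1 to 5 and 6.37, 6.96 and 0.486 CPM in controls 1 to 3. The groups did not overlap, and the dysmorphic samples covered a wide range, from 16.0 CPM in dysmorphic 4 to 595 CPM in dysmorphic 2. The log2 fold change was 5.29 ± 1.54 (SE) with an adjusted p of 0.11, and without control 3 it was 4.76 with an adjusted p of 0.191. The same 5 samples in the same order held 4.74, 17.9, 0.962, 0.131 and 6.89 CPM of Pax2, so dysmorphic 2 was highest and dysmorphic 4 lowest for both genes. Gpnmb lies at chr6:49036546-49070929, Pmel at chr10:128704195-128720238, Dct at chr14:118012790-118052244 and Ctsk at chr3:95499256-95509362 in GRCm38.

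**Figure D2:**
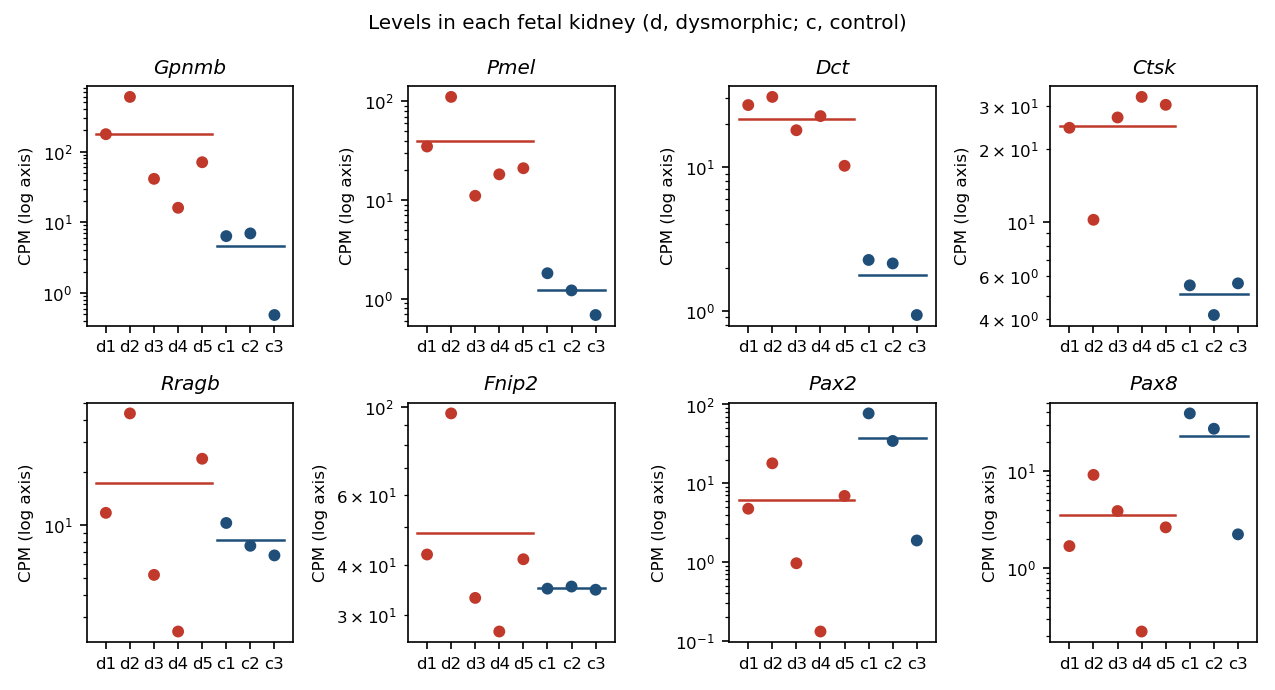
Levels of 8 genes in each fetal kidney, in TMM-scaled CPM on log axes, with the mean of each group as a line (d, 5 dysmorphic samples; c, 3 control samples). Gpnmb, Pmel, Dct and Ctsk did not overlap between the groups, Rragb and Fnip2 were highest in dysmorphic 2, and Pax2 and Pax8 were high in controls 1 and 2 and low in control 3.

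The remaining melanocytic genes had values that pointed the same way without passing the test. Tyr, the rate-limiting enzyme of melanin synthesis, was at 7.46, 2.63, 6.79, 7.07 and 2.05 CPM in the dysmorphic samples and at 1.25 and 0.587 CPM in controls 1 and 2, with no count in control 3. Tyrp1, another melanin synthesis enzyme, was between 2.97 and 8.39 CPM in the dysmorphic samples and at 1.29, 0.163 and 0 CPM in the controls. Trpm1, a cation channel of melanocytes, was at 14.3, 25.2, 5.55, 7.42 and 4.62 CPM against 1.81, 0.734 and 0 CPM. Gpr143, a melanosome receptor, was between 0.822 and 5.68 CPM against at most 0.283 CPM. These genes fall into different orders across the dysmorphic samples: dysmorphic 2 was the highest for Gpnmb, Pmel, Dct, Trpm1 and Gpr143 and was among the lower 2 of the 5 for Tyr, Tyrp1, Slc45a2, Mlana and Mc1r. Dysmorphic 4 was the highest of all samples for 7 of the 16 genes and dysmorphic 2 for 6.

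Genes restricted to pigment cells were examined beside these, since skin or neural crest tissue would carry them. Of 12 such genes, 9 had every dysmorphic sample above every control, edgeR called 1 (Dct), DESeq2 10 and voom 11, all higher, and the median log2 fold change was 2.78. Sox10, the transcription factor of melanocytes and Schwann cells, was at 11.4, 6.28, 9.16, 8.84 and 11.5 CPM in the dysmorphic samples and at 1.72, 3.41 and 5.29 CPM in the controls. Epidermal genes moved in the same samples. Of 24 genes of epidermis and hair, 19 had every dysmorphic sample above every control and 3 passed the test in edgeR, 17 of 21 in DESeq2 and 16 of 24 in voom. Their median was 2.95, with a share of counts of 0.197% to 0.572% in the dysmorphic samples against 0.0107% to 0.114% in the controls. Over all genes, for comparison with the pigment cell and epidermal counts, 9.64% had every dysmorphic sample above every control. Those called higher were 2.4% in edgeR, 8.19% in DESeq2 and 9.95% in voom. Control 3 was below every dysmorphic sample for 23 of these 24 genes and for 15 of the 16 melanocytic genes. The part of skin in the melanocytic values was not tested.

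Promoter sequences of 3 pigment genes and of Rragb are shown, because MiT/TFE factors bind E-boxes and these windows hold them. The sequences are the RefSeq promoter windows of GRCm38.p6, each running from 250 bases before to 50 bases after the transcription start, 5′ to 3′ on the gene's strand. Capitals mark CACGTG, which reads the same on both strands, and CATGTG with its reverse complement CACATG. The windows are at chr14:118052197-118052496 (minus strand), chr7:87493463-87493762 (minus strand), chr4:80833963-80834262 (plus strand) and chrX:153139708-153140007 (plus strand).
Dct: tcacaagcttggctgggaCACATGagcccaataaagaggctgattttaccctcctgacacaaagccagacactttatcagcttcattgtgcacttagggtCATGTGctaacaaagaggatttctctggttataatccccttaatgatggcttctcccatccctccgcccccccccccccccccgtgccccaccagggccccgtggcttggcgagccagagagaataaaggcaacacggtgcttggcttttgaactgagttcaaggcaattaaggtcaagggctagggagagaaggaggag
Tyr: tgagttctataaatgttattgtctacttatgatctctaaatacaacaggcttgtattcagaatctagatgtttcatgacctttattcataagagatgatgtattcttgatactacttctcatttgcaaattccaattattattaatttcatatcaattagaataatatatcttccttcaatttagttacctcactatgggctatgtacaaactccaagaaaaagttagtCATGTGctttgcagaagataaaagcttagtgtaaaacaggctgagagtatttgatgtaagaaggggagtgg
Tyrp1: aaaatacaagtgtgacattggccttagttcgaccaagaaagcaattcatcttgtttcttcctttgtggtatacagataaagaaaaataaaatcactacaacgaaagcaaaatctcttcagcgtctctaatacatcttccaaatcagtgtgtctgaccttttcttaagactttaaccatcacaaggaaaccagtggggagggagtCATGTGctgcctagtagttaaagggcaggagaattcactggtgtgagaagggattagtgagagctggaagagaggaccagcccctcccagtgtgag
Rragb: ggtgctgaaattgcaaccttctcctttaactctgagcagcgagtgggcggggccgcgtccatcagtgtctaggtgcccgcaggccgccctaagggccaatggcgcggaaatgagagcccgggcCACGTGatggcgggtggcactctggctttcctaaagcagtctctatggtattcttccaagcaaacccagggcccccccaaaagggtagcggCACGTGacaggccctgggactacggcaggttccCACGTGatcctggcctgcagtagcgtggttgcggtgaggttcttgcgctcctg
CACGTG was present in 7.15% of 32851 promoter windows and CATGTG on either strand in 14.2%. Of the melanocytic list, 11 genes had a window, of which 2 held CACGTG and 6 held CATGTG. Of the MiT/TFE factors and partners, 17 had a window, of which 6 held CACGTG, and of the lysosomal hydrolases 11 of 31 did. CATGTG was also held by 6 of 13 genes with a window on the loop of Henle and distal tubule list. These list counts are of genes, where a match in any window of the gene sufficed, while the shares above are of windows. A match is a description of the letters and says nothing of binding in these tissues.

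The fusion genes and their partners in the cell were measured next. Counts of Tfe3 were 17.4, 15.3, 14.7, 23.4 and 17.4 CPM in the dysmorphic samples and 17.5, 17.5 and 18.3 CPM in the controls, a log2 difference of -0.01 ± 0.17 (SE). Counts of Aspscr1 were 14.8, 13.5, 13.3, 21.1 and 20.5 CPM against 19.7, 18.5 and 26.9 CPM, a difference of -0.38 ± 0.22. The groups overlapped for both genes. Whether reads of the fusion transcript would be counted under either mouse gene was not given in the sources used here, so these values do not check the allele. Of 18 MiT/TFE factors and partners, none was called in either direction with edgeR and the median log2 fold change was -0.05. At an unadjusted p below 0.05 there were 3, DESeq2 called 0 and voom called 3 lower. Over all genes the shares in either direction were 20.3%, 10.8% and 17.3%. Mitf, the pigment cell member of the family, was at 17.9, 9.37, 12.7, 16.7 and 8.54 CPM against 13.5, 6.98 and 4.93 CPM, and the groups overlapped. Tfec was at 39.6, 41.9 and 62.9 CPM in dysmorphic 5, control 2 and control 3, and at most 3.88 CPM in the other 5 samples, the same split as for the gut transcripts.

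Of the 18 genes of this list, control 3 was the highest of all samples for 7 and dysmorphic 2 for 5. Of the latter, 3 are given as examples, chosen after their values were seen. Rragb, a Rag GTPase that recruits mTORC1 to lysosomes, was at 11.8, 43.4, 5.21, 2.48 and 23.9 CPM in the dysmorphic samples and at 10.3, 7.63 and 6.73 CPM in the controls. Fnip2, a partner of folliculin, was at 42.6, 96.1, 33.2, 27.3 and 41.5 CPM against 35.0, 35.4 and 34.8 CPM. Ppargc1a, a coactivator of mitochondrial genes, was at 128, 448, 84.5, 39.1 and 79.7 CPM against 121, 85.3 and 55.7 CPM. Dysmorphic 4 was the lowest and dysmorphic 2 the highest of all 8 samples for these 3 genes, as for Gpnmb within its group. Fnip1, another folliculin partner, was above the controls in all 5 dysmorphic samples, with 149 ± 49.0 CPM (SD, n = 5) against 95.2 ± 13.1 CPM (SD, n = 3) and an adjusted p of 0.206.

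Lysosomal genes were examined as further lists. Of 40 lysosomal hydrolases, Ctsk was the only one called (2.5%), near the 2.67% of all genes. For 3 of them every dysmorphic sample was above every control, against 9.64% of all genes, and the median log2 fold change was -0.12. Without control 3 that median was 0.23, and with sex as a covariate it was 0.06, so its sign is not settled. Against controls 1 and 2 alone, every dysmorphic sample was above both for 10 of the 40, against 13.6% of all genes, and below both for 0. Ctsl, cathepsin L, was at 160, 460, 78.9, 71.4 and 173 CPM against 79.0, 91.6 and 162 CPM, and Gla, α-galactosidase A, was at 19.5, 59.5, 14.9, 7.47 and 20.2 CPM against 10.1, 15.5 and 22.3 CPM. Both were highest in dysmorphic 2 and overlapped between the groups. Glb1, β-galactosidase, was at 340, 198 and 495 CPM in dysmorphic 5, control 2 and control 3, and between 42.8 and 56.2 CPM in the others. Control 3 was the highest of the 8 samples for 22 of the 40 hydrolases and for 17 of 34 lysosomal membrane and V-ATPase genes. None of these 34 genes was called with edgeR, 6 had an unadjusted p below 0.05, against 20.3% of all genes, DESeq2 called 2 and voom 4, and the median was -0.30, or -0.05 without control 3. Of 26 autophagy genes only Atg9b, which encodes a membrane protein of early autophagosomes, was called, with a rise of 2.84 ± 0.58 (adjusted p = 0.0468), against 2.67% of all genes called. At an unadjusted p below 0.05 there were 5 of the 26, and DESeq2 called 2 higher and 2 lower and voom 3 higher and 2 lower. It was at 9.67 ± 6.43 CPM (SD, n = 5) against 1.35 ± 0.483 CPM (SD, n = 3).

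Of 25 stress and amino acid genes edgeR called 1 higher and 2 lower, against 2.67% of all genes called. At an unadjusted p below 0.05 there were 7, against 20.3% of all genes. DESeq2 called 4 higher and 2 lower and voom 3 higher and 2 lower, against 10.8% and 17.3% of all genes called. Atf3, an early stress transcription factor, rose by 1.39 ± 0.20 (adjusted p = 0.035), with 5.17, 7.41, 5.62, 6.23 and 5.35 CPM in the dysmorphic samples and 2.04, 2.28 and 2.53 CPM in the controls. Its levels were even within each group and the groups did not overlap. Gclm, the modifier subunit of the enzyme that starts glutathione synthesis, fell by 1.08 on the log2 scale (SE 0.19, adjusted p = 0.0361), with 24.6, 28.4, 20.4, 19.5 and 32.1 CPM against 46.4, 54.4 and 58.1 CPM. Cth, which makes cysteine from cystathionine, fell by 1.78 (SE 0.35, adjusted p = 0.0438), from 29.7 ± 4.67 CPM (SD, n = 3) to 8.67 ± 3.91 CPM (SD, n = 5). Asns, asparagine synthetase, did not overlap between the groups either, with 68.1 ± 13.8 CPM against 32.9 ± 8.74 CPM and an adjusted p of 0.0608. Dysmorphic 2 was the highest of the 8 samples for 11 of the 25 genes, among them Gsta4, a glutathione transferase, at 109 CPM against at most 33.1 CPM in the others.

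Many kidney genes had lower levels in the dysmorphic samples than in controls 1 and 2, though most did not pass the test. Control 3 lay within the dysmorphic range for 8 of 16 lineage, 9 of 20 podocyte, 13 of 30 proximal tubule and 12 of 20 loop and distal tubule genes. No gene of the 16 renal lineage factors was called with edgeR, 8 were lower at an unadjusted p below 0.05, DESeq2 called 5 lower and voom 6, and the median log2 fold change was -2.52, or -2.64 without control 3. Of the 20 loop and distal tubule genes edgeR also called 0, with 15 at an unadjusted p below 0.05, of which 13 were lower and 2 higher. DESeq2 called 10 of them lower and 2 higher, voom called 0 lower and 2 higher, and their median was -2.91, or -3.48 without control 3. Over all genes 20.3% had an unadjusted p below 0.05. Those called lower were 0.269% in edgeR, 2.58% in DESeq2 and 7.31% in voom. For 12 of the 16 lineage factors, every dysmorphic sample was below both of the controls 1 and 2, and 15 of 30 proximal tubule genes, 12 of 20 podocyte genes and 16 of 20 genes of the loop of Henle and distal tubule had that order. Over all genes tested, 10.8% were below both of these controls in every dysmorphic sample and 13.6% were above both. Control 3 was set apart by kidney genes, so these counts are a description and carry no test. Pax8, which drives the Cre, was at 1.69, 9.11, 3.88, 0.224 and 2.63 CPM in the dysmorphic samples and at 39.0, 27.2 and 2.23 CPM in the controls, with an adjusted p of 0.209. Wt1, a transcription factor of nephron progenitors and podocytes, was at 11.6, 41.0, 5.54, 9.02 and 9.88 CPM against 116, 66.1 and 45.0 CPM, and its groups did not overlap (adjusted p = 0.0987). Dysmorphic 2 kept the highest level of its group for Pax2, Pax8, Wt1 and Six2, the marker of nephron progenitors.

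In edgeR 1 of 20 podocyte and 1 of 30 proximal tubule genes passed the test, both lower. Over all genes 2.67% were called and 0.269% were called lower. At an unadjusted p below 0.05 there were 11 and 17, DESeq2 called 6 and 13 lower, and voom called 7 and 16 lower and 2 and 0 higher. Podxl, the sialomucin that coats podocyte foot processes and also vessels, fell by 1.48 (log2, SE 0.30, adjusted p = 0.0469), with 39.9, 58.3, 45.0, 31.2 and 85.2 CPM in the dysmorphic samples and 173, 134 and 127 CPM in the controls. Mme, the membrane peptidase neprilysin of the proximal brush border, fell by 2.32 (SE 0.42, adjusted p = 0.0382), with 53.2, 63.4, 69.4, 51.4 and 59.2 CPM against 277, 512 and 99.7 CPM. Both genes are expressed outside the kidney, and control 3 held them at a level above the dysmorphic range. Of 20 nephron progenitor genes edgeR called 1 higher, DESeq2 1 higher and 1 lower, and voom 2 higher and 4 lower. The median log2 fold change of the list was -0.27, but it was 0.25 without control 1, so its sign rests on that sample. edgeR called 0 of 21 ureteric bud and collecting duct genes (7 at an unadjusted p below 0.05, DESeq2 6, voom 5; median -1.64) and 0 of 18 early nephron genes (4 at an unadjusted p below 0.05, DESeq2 2, voom 2; median -0.13, or 0.07 without control 1). Over all genes the shares were 20.3%, 10.8% and 17.3%. In the renal stroma list Igf1, a growth factor, rose by 1.11. Among 27 genes of nephrogenic signalling Rspo3, an enhancer of WNT signalling, rose by 0.73. Each was the only edgeR call of its list, against 2.67% of all genes. At an unadjusted p below 0.05, 6 of the 20 stroma genes were higher and 3 lower. DESeq2 called 5 of them higher, and voom 7 higher and 4 lower. Of the signalling genes 5 were higher and 3 lower at that p. DESeq2 called 1 higher and 2 lower, and voom 4 higher and 4 lower.

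**Figure D3:**
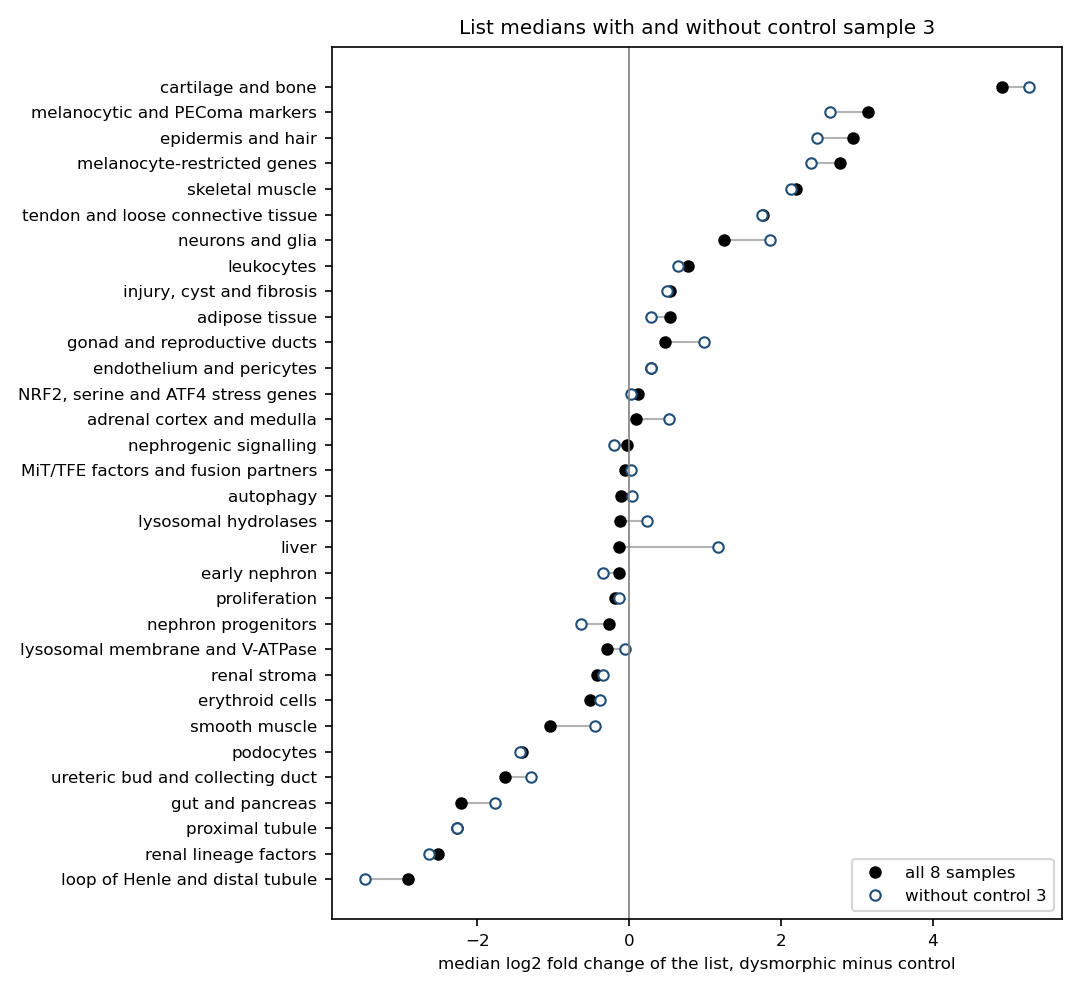
Median log2 fold change, dysmorphic minus control, of each of 32 gene lists with all 8 samples (black) and without control 3 (open). The 9 kidney lists and smooth muscle lay below 0 and the skeletal muscle, epidermis, cartilage and melanocytic lists above 0 in both fits, while the liver list moved from -0.13 to 1.17 and the lysosomal hydrolases from -0.12 to 0.23.

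The 12 largest falls among well-expressed genes included genes outside the lists. Slc5a8, a monocarboxylate transporter of kidney and colon, fell by 4.13 (SE 0.64, adjusted p = 0.035), with 1.21, 3.75, 1.64, 0.589 and 0.993 CPM in the dysmorphic samples and 49.3, 15.2 and 21.4 CPM in the controls. Atp12a, the non-gastric proton pump of colon and other epithelia, fell by 7.30 (SE 1.34, adjusted p = 0.0389), with levels between 1.54 and 114 CPM in the controls and at most 0.503 CPM in the dysmorphic samples. Its size rests on control 3, without which the log2 difference was -3.98 (adjusted p = 0.0995). Slc47a1, the renal exporter of organic cations, fell by 2.45 (SE 0.43, adjusted p = 0.0364), from 24.3 ± 13.1 CPM (SD, n = 3) to 4.44 ± 1.75 CPM (SD, n = 5). Tbx3 and Hoxa10, transcription factors of trunk and urogenital patterning, fell by 1.70 and 1.44. Gca, Tmem243, Steap2 and Slc16a12 completed the 12 largest falls, together with Mme, Cth and Podxl.

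Skeletal muscle genes made up the most uniform change. All 36 genes of the list had every dysmorphic sample above every control, against 9.64% of all genes. In edgeR 30 were called higher, against 2.4% of all genes. DESeq2 and voom each called all 36 higher, against 8.19% and 9.95% of all genes. The median log2 fold change was 2.20, within a range from 1.46 to 2.95. Ttn, the giant sarcomere protein, held between 3.65% and 8.23% of all counts in the dysmorphic samples and 1.58%, 1.66% and 1.36% in controls 1 to 3. Dysmorphic 2 was the lowest of its group for this gene, and it was above the highest control. Myog, a myogenic transcription factor, rose by 2.60 ± 0.49 (adjusted p = 0.0401), from 1.86 ± 0.136 CPM (SD, n = 3) to 11.3 ± 5.38 CPM (SD, n = 5). Cdh15, a cadherin of myoblasts, Mymk, which fuses them, and Chrng, a subunit of the fetal acetylcholine receptor of muscle, rose by 3.15, 2.94 and 2.90. They were among the 12 largest rises of well-expressed genes, as were the pigment and skin genes Pmel, Dct, Krt15 and Ivl, the cartilage gene Cilp and Atg9b. Best3, a chloride channel, rose by 2.88, Pla2g4e, a phospholipase, by 2.89 and Apod, a lipocalin, by 2.85. When the muscle genes were removed before scaling, 501 genes were called, of which 500 were among the 605. The part of muscle tissue in the other rises was not tested.

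Connective tissue, skin and fat genes added further calls in the same direction. Of 28 injury, cyst and fibrosis genes, Cd44, Postn, Col1a1 and Col1a2 passed the test. DESeq2 called 8 of the 28 higher, and voom 11 higher and 1 lower. Cd44, the hyaluronan receptor, rose by 2.25 ± 0.32 (adjusted p = 0.035), with 237, 131, 272, 259 and 122 CPM in the dysmorphic samples against 44.2, 44.7 and 39.4 CPM in the controls. Postn, a matrix protein of periosteum and fibrotic tissue, rose by 1.97 ± 0.33 (adjusted p = 0.035), and Col1a1, a chain of type I collagen, by 1.42 ± 0.26 (adjusted p = 0.0395). Of 20 genes of tendon and loose connective tissue 5 were called, among them Aspn and Col12a1, and of 15 adipose genes Plin4, Cidea, Lpl and Cox8b were called. DESeq2 called 16 tendon and 4 adipose genes higher, and voom 12 and 4. Over all genes the shares called higher were 2.4% in edgeR, 8.19% in DESeq2 and 9.95% in voom. Havcr1 and Lcn2, markers of injured tubules, were not called, with log2 differences of 1.13 ± 0.93 and -1.11 ± 0.87 (SE). Krt15, a keratin of basal epidermis, rose by 3.42 ± 0.63 (adjusted p = 0.0395), Trp63, the transcription factor of stratified epithelium, by 2.71 ± 0.50 (adjusted p = 0.0395), and Ivl, a protein of the cornified envelope, by 3.46 ± 0.72 (adjusted p = 0.0494). With the title prefix as a block in the edgeR fit, their adjusted p-values were 0.0513, 0.0527 and 0.0644.

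Other tissues were spread unevenly within the dysmorphic group. Col2a1, the collagen of cartilage, was at 1.28, 49.1, 703, 225 and 1651 CPM in dysmorphic 1 to 5 and at 14.9, 5.75 and 6.31 CPM in the controls. Dysmorphic 1 was thus below all controls while dysmorphic 5 was far above them, and of 26 cartilage and bone genes edgeR and voom called 1 each, with edgeR calling Cilp, whereas DESeq2 called 21, and 20 had an unadjusted p below 0.05. The median was 4.91, or 3.18 without dysmorphic 5. Krt4 and Krt13, keratins of moist stratified epithelia such as the esophagus, were at 190 and 177 CPM in dysmorphic 2 and at most 0.992 CPM in every other sample. Of 24 neuron and glia genes, dysmorphic 5 was the highest sample for 20. In edgeR 2 were called higher, against 2.4% of all genes, among them Foxd3, a transcription factor of the neural crest. The median of the list was 1.25, or -0.09 without dysmorphic 5. Among 24 leukocyte genes, the macrophage genes Adgre1 and Mrc1 rose by 1.12 and 1.63. edgeR called 0 genes in 5 further lists, whose counts are to be read against 20.3% of all genes at an unadjusted p below 0.05, 10.8% called by DESeq2 and 17.3% called by voom. At an unadjusted p below 0.05 there were 5 of 20 liver genes (DESeq2 5 calls, voom 2), 3 of 18 gut and pancreas genes (DESeq2 3, voom 3), 8 of 24 endothelial and pericyte genes (DESeq2 4, voom 7), 3 of 17 erythroid genes (DESeq2 1, voom 1) and 2 of 13 adrenal genes (DESeq2 2, voom 3). Smooth muscle and gonad gave 1 edgeR call each, against 2.67% of all genes. The genes called were Tpm2, a tropomyosin, and Fst, the activin inhibitor follistatin, both higher. Of the 14 smooth muscle genes 9 had a negative log2 fold change, and the median was -1.05. At an unadjusted p below 0.05, 3 of them were higher and 1 lower. DESeq2 called 2 higher and 1 lower, and voom 3 higher and 1 lower. Of the 14 gonad genes 5 were higher and 2 lower at that p. DESeq2 and voom each called 2 of that list higher and 1 lower.

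No proliferation gene passed the test, although 29 of the 30 genes of the list had a negative log2 fold change. The raw share of all counts taken by the list was 0.428% to 0.489% in the dysmorphic samples and 0.535% to 0.549% in the controls, with no overlap. Raw shares are not adjusted for other genes taking more counts, such as those of skeletal muscle. In TMM-scaled CPM the groups overlapped. The list summed to 5236, 4401, 4841, 5221 and 4166 CPM in dysmorphic 1 to 5 and to 4983, 5210 and 5101 CPM in controls 1 to 3. None of 30 was called with edgeR, DESeq2 or voom, against 2.67%, 10.8% and 17.3% of all genes. At an unadjusted p below 0.05 there was 1, against 20.3% of all genes. Every dysmorphic sample lay below every control for 2 of the 30, against 5.09% of all genes. The median log2 fold change was -0.18. Mki67, a marker of cycling cells and the only gene of the list with a positive value, was at 1855, 1578, 1825, 1959 and 1592 CPM in the dysmorphic samples and at 1581, 1772 and 1882 CPM in the controls, a log2 difference of 0.01 ± 0.11 (SE). The difference for Top2a was -0.07 ± 0.11.

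The effect of the fusion was set beside that in adult mice of the same series, in which Sglt2-Cre, active in the proximal tubule, switches on the same allele. Kidney tumors of 6 mice were compared with kidneys of 3 Sglt2-Cre controls, and the difference between the fetal and the adult effect was tested in a joint fit. It passed the test for 2185 of 24444 genes (8.94%), and for 1236 without control 3 and 1219 without control 2. Proliferation genes gave the clearest difference, with a smaller effect in the fetal kidneys for 28 of 30 genes, or 27 without control 3. For Mki67 the fetal effect was lower by 2.79 on the log2 scale (SE 0.25, adjusted p = 4.9e-06). Its level was 284 ± 59.0 CPM (SD, n = 6) in adult tumors and 41.0 ± 9.53 CPM (SD, n = 3) in adult controls. Both fetal groups held far more of it, as given above, so the fetal and adult effects start from different levels.

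Gpnmb had a fetal effect lower by 5.98 than the adult one (SE 1.39, adjusted p = 0.0159), or by 6.39 without control 3 (adjusted p = 0.00908). In adult tumors it was at 5092 ± 1964 CPM (SD, n = 6) and in adult controls at 2.09 ± 0.480 CPM (SD, n = 3). Rragb and Gla also had smaller fetal effects, by 4.02 (SE 0.93, adjusted p = 0.0154) and by 4.59 (SE 0.81, adjusted p = 0.00261), and both remained called without control 3. For Fnip2 the fetal effect was lower by 1.88 (adjusted p = 0.0295), and without control 3 the adjusted p was 0.0658. Smaller fetal effects were called for 8 of 40 lysosomal hydrolases and 10 of 34 lysosomal membrane and V-ATPase genes, and a larger one for 1 hydrolase. Without control 3 smaller effects were called for 2 and 3 of them, against 4.72% of all genes differing in either direction, which puts the hydrolases near that background. For Ctsk and Pmel the difference between the models was 0.09 ± 0.64 and -2.81 ± 1.49 (SE) and was not called. Model, age, Cre driver and tissue differ together between the comparisons and cannot be told apart.

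**Figure D4:**
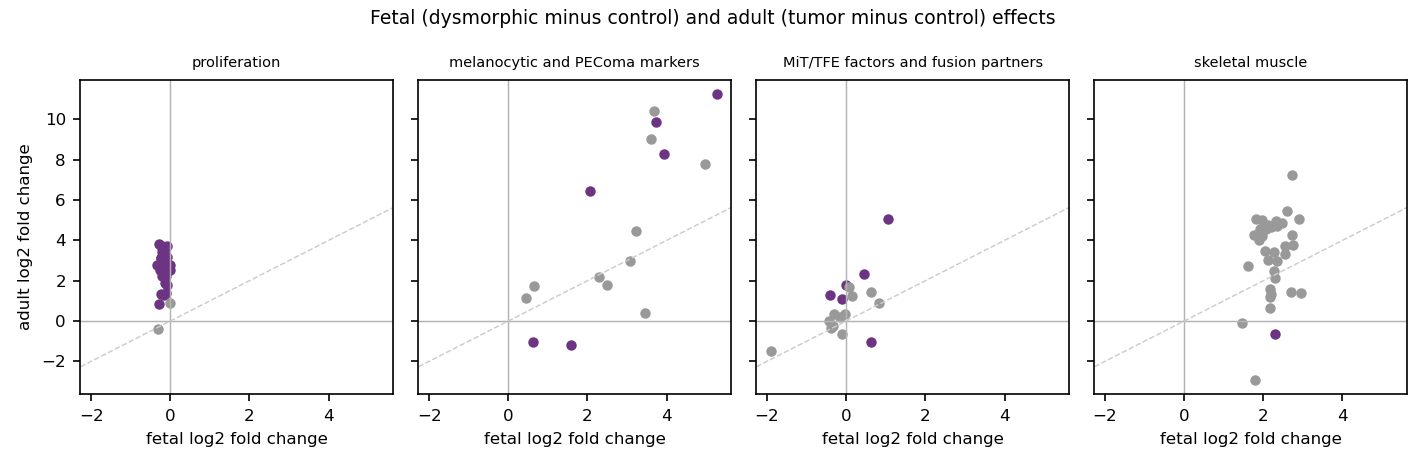
Fetal log2 fold change (dysmorphic minus control, x axis) against adult log2 fold change (kidney tumor minus control, y axis) for genes of 4 lists, with genes whose effects differed between the models in purple and a dashed line of equal effects. Proliferation genes lay near 0 on the fetal axis, with a median of -0.19, and at a median of 2.66 on the adult axis.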

How the data were processed

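RNA-seq counts per gene of 8 fetal kidney samples were used as the authors deposited them, as raw counts with no normalization. The submitters' processing notes name STAR 2.5.2a, Bowtie2, FastQC, MultiQC and the build GRCm38/mm10 without roles; the counting tool was not given in the sources used here. Among nonzero values up to 20, even numbers made up 81.3% to 83.7%, so both mates may have been counted. Names and coordinates came from GENCODE M21 (53274 of 53379 genes matched). The fit used edgeR 4.0.16 in R 4.3.3 with filterByExpr, TMM factors and the quasi-likelihood F-test, and Benjamini-Hochberg adjusted p-values below 0.05 were called. Levels are TMM-scaled CPM. The SE was derived from the log2 fold change and F. A count of 3 served as the floor, which covers counting error only. No label ties the samples to separate litters, and p-values measure the spread between these samples. For the adult model, libraries of the same mouse and group were summed. The members and lists were chosen with earlier results of these data known. Any gene of the lists could be named, and beyond them 12 rises and 12 falls, the largest among called genes with a mean log2 CPM no lower than 2, no overlap between the groups and a symbol that is not a provisional one. Example genes named for their level in 1 sample were chosen after their values were seen. The alternatives were RLE factors, DESeq2 1.42.0, limma 3.58.1 voom with sample weights, other filters, halved counts, sex as a covariate, a block by title prefix, a test against a 1.5-fold change and fits without 1 sample; removing muscle genes before scaling was added after seeing the data. The code was tested on simulated data. A few genes of the lists are not reported here by name.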

Additional observations from a re-analysis of the deposited data

Results flagged for a closer look

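Dysmorphic 2 lay far from the other 4 dysmorphic samples for 5 of the 57 genes examined, by Dixon's ratio against a critical value of 0.71 for 5 samples; chance flags about 1 in 20 groups of genes chosen without regard to their values, which does not hold here, since some of the 57 (Fnip2 and Gla among them) were picked with earlier results of these samples known. Its levels were 595 CPM for Gpnmb, 111 CPM for Pmel, 3.11 CPM for Six2, 96.1 CPM for Fnip2 and 59.5 CPM for Gla. For all 5 it was the highest of the dysmorphic samples, and the cause was not tested.

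Fetal and adult effects of the fusion differed, by the test of the difference itself, for 11 of the 57 genes examined, many of them chosen for their fetal values, against 8.94% of all genes, or 4.72% without control 3. The log2 difference, fetal minus adult, was -2.79 for Mki67, -9.14 for Ivl, -1.82 for Npc1, -4.59 for Gla, -4.02 for Rragb, -5.98 for Gpnmb, -3.06 for Atf3, -1.88 for Fnip2 and -2.07 for Col1a1. It was 2.79 for Rab38 and 3.43 for Trp63. Without control 3 the adjusted p rose above the threshold for Rab38 (0.0767), Trp63 (0.0899), Atf3 (0.0519), Col1a1 (0.0892) and Fnip2 (0.0658).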

How the results depend on the processing

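Of 605 genes called, 544 higher and 61 lower, the numbers under other settings were as follows. DESeq2 called 2601 (1977 higher, 624 lower) and limma voom with sample weights called 3916 (2257 higher, 1659 lower), which lowers the share of higher calls from 89.9% to 76.0% and 57.6%. DESeq2 and voom hold 605 and 604 of the 605 genes. Sex as a covariate left 5 (4 higher, 1 lower), none of them in any of the 32 lists, while the melanocytic median was 3.21 against 3.15. The H0248 samples alone, and the test against a 1.5-fold change, left 0, with 4037 and 2381 genes at an unadjusted p below 0.05; M1833 alone has 1 control and was not fitted. Without a filter 38 genes were lower, and with a filter at a mean CPM of 1 the number was 111. Fits without 1 sample gave 0 to 1247 calls, 0 to 1015 higher and 0 to 337 lower. The replicate block by title prefix gave 409 calls, 335 of them higher, and 330 of the 605 were among them, with 0 calls left in the epidermis, podocyte, autophagy, renal stroma, nephrogenic signalling, nephron progenitor, cartilage and neuron lists (Krt15, Trp63 and Ivl at adjusted p-values of 0.0513, 0.0527 and 0.0644); samples with the same prefix had correlations of their deviations between -0.17 and 0.51 over 8 pairs, and samples with different prefixes between -0.59 and 0.30 over 7 pairs (medians 0.08 and -0.22). Not every same-prefix pair was above 0.1 and no label says what the prefix marks, so the prefix was not taken to pair them. The difference between the models gave 1219 to 2504 calls without 1 fetal sample, with 1219 without control 2 and 1236 without control 3, against 2185. RLE factors gave 606 calls. Halved counts, gave 710, of which 601 were among the 605. Among the genes checked one by one, every called gene kept its direction under all settings run, while Mki67 and Gla, neither of them called, kept theirs in 16 and 18 of 19. In 6 of the 8 fits without 1 sample no gene was called, so no single gene is called independently of those samples.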
